A study of Mus musculus with 12 samples.

Results

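Serpins are a family of proteins that share a fold and mostly inhibit serine proteases. They were followed in the livers of 12 male mice on an FVB background. The members were all probe sets (the sets of oligonucleotides that an Affymetrix array carries for a transcript) whose gene symbol begins with Serpin. There were 42 such probe sets among 22626 tested. Of these, 39 belonged to 1 serpin each and together stood for 30 genes, and 3 were shared among several serpins. The 3 shared probe sets added 6 genes that had no probe set of their own, and 0 were shared with a gene that is no serpin. One group consisted of 6 mice lacking Pctp, the gene for phosphatidylcholine transfer protein (PC-TP, StarD2), and the other of 6 wild-type littermates. All 12 ate chow with 0.2% fenofibrate, a drug that activates the nuclear receptor PPARα, for 7 days. The mice were 8 weeks old when the diet began and 9 weeks old at the end. Each liver had an array of its own. Livers without fenofibrate were not analysed here, so all differences are between genotypes on the drug, in whole tissue. The sources used here do not say which part of Pctp is disrupted.

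An inhibitory serpin offers an exposed loop as bait. When the protease cuts the loop, the serpin snaps into another shape and holds the protease in a dead complex, so each molecule works once. Hepatocytes secrete most of the serpins of blood plasma, among them α1-antitrypsin, antithrombin, heparin cofactor II, α2-antiplasmin and C1 inhibitor. Some members inhibit nothing: Serpina6 carries corticosteroids, and Serpinh1, also called HSP47, is a collagen chaperone of the endoplasmic reticulum. The members of clade B lack a classical signal peptide and mostly act inside cells.

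Values are the authors' intensities on a linear scale. Differences are log2(intensity + 16), knockout minus wild type, from limma fitted over all 22626 probe sets. Folds are 2 to the power of that difference, and the threshold was a Benjamini-Hochberg adjusted p of 0.05 over all probe sets. Array medians lay between 84.0 and 91.2, and 0 pairs of arrays held identical values. Pctp itself checked the labels: its brighter probe set read 66.5 to 99.7 in knockout livers and 2737 to 2954 in wild-type livers. Its dimmer probe set read 6.09 to 33.1 in knockout livers and 1083 to 1355 in wild-type livers. The 9 measured hepatocyte markers summed to between 62231 and 64899 in knockout livers and between 61159 and 64017 in wild-type livers. Of these markers 2 passed the threshold as higher, Asgr1 and Hnf4a (22.2%, against 6.46% of all genes), and 0 as lower. RNA integrity was read from the control probe sets of beta-actin at its 5' and 3' ends. Their log2 ratio, 5' over 3', was -1.18 ± 0.0839 in knockout and -1.57 ± 0.132 in wild-type livers (SD, n = 6 each). The groups did not overlap in it (difference 0.39, two-sided exact permutation p = 0.00216, the smallest that groups of this size can give). RNA integrity and genotype therefore cannot be told apart in the results that follow.

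Wild-type replicates 2 and 5 stood apart from the other wild-type livers in macrophage markers. The 12 Kupffer cell and macrophage markers summed to 8320 and 8235 on these arrays and to between 3677 and 4384 on the other 4 wild-type arrays, with 4803 to 6530 in knockout livers. Cd5l, a secreted macrophage protein, read 1402 and 1289 on these 2 arrays and 474 to 598 on the other wild-type arrays. Over all 12 arrays 0 of the 12 markers passed the threshold. With these 2 arrays left out 9 were higher in knockout livers (75.0%, against 9.02% of all genes). The same markers singled out the 2 arrays, so that count follows in part from the choice and is no test. Because these 2 arrays stood apart, calls and list counts are also given without them, an alternative chosen after the data were seen. In it 9.03% of probe sets and 9.02% of genes passed.

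The sequences shown first are the starts of the 5 genes of α1-antitrypsin. Whether they bear on the expression values was not tested. The mouse has several Serpina1 copies side by side on chromosome 12, where a human has a single gene. The probe set shared by Serpina1a and Serpina1d was the only one for these copies to pass the threshold. Shown are 150 bases around or just before each annotated start, from RefSeq in the build GRCm38.p6, all on the minus strand. They are written 5′ to 3′, with the letters GTTAAT in capitals. The windows are aligned on these letters, which begin between -78 (Serpina1e) and -16 (Serpina1d) bases from the annotated start. These letters are an arm of the palindrome bound by HNF1, a transcription factor on which α1-antitrypsin expression in liver depends. The windows lie at chr12:103863584-103863733 (Serpina1a), chr12:103738159-103738308 (Serpina1b), chr12:103904921-103905070 (Serpina1c), chr12:103773593-103773742 (Serpina1d) and chr12:103956919-103957068 (Serpina1e).
Serpina1a: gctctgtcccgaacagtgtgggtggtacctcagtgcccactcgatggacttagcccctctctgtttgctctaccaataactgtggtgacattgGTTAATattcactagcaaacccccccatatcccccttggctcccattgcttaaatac
Serpina1b: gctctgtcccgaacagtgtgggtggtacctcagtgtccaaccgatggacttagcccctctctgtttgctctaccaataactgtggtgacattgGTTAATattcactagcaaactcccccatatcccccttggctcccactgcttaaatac
Serpina1c: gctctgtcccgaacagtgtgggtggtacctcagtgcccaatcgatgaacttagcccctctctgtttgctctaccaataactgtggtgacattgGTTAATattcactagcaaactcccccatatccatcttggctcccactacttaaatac
Serpina1d: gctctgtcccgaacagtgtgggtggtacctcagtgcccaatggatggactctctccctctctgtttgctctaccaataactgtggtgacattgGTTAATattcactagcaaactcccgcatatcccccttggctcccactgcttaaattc
Serpina1e: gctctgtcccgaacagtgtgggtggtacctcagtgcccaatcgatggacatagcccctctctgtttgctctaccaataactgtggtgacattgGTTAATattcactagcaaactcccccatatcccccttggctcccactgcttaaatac
The 10 pairs of these windows were identical at 139 to 147 of 150 bases. On either strand, GTTAAT occurred in 7.10% of the 32851 promoter windows of 300 bases in the reference table. The longest identical run around these letters in all 5 genes was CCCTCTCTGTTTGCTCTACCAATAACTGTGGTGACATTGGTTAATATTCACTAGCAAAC, of 59 bases, and it occurred in 5 of the 32851 windows. Those 5 windows belong to the same 5 genes that defined the run, so that count was fixed in advance. A match is a description of the sequence and shows no binding.

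The leading result concerned Serpinh1, whose start is shown for that reason. The 300 bases, 250 before and 50 after the annotated start of transcription (chr7:99353190-99353489, minus strand, GRCm38.p6, RefSeq), carry the letters GGGCGG, the core of the GC box that Sp1 family factors bind, in capitals.
Serpinh1: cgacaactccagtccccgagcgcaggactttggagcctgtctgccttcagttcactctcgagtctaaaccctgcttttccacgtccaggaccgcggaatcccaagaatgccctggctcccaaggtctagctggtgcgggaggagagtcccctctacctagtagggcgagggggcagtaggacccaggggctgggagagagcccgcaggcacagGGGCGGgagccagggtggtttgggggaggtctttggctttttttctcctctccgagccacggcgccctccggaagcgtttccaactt
On either strand, GGGCGG occurred in 35.7% of all promoter windows. Heat shock induces HSP47 through heat shock factor. The letters GAANNTTC and TTCNNGAA, the paired units of a heat shock element, occurred in 7.86% and 8.52% of all windows and not in the 300 bases shown, which says nothing of the rest of the gene.

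Across the family, 4 of 42 probe sets (9.52%) passed the threshold, against 12% of all probe sets. All 4 were lower in knockout livers, and 0 were higher. Of all probe sets 5.15% passed as lower and 6.82% as higher, a split that moves with scaling. Higher calls made up 57.0% of the total on the deposited values, 49.2% with quantile normalization and 44.0% with each array centred on its median. Without wild-type replicates 2 and 5, 3 of 42 passed, both Serpinh1 sets as lower and Serpinb9 as higher. The share of serpins called was thus close to the background. The probe sets were those of Serpinh1 (both of its sets), Serpinb6b, and the set shared by Serpina1a and Serpina1d. An unadjusted p under 0.05 was found for 10 of 42 (23.8%), against 26.3% of all probe sets. The groups did not overlap in 1 of 42 (2.38%), a Serpinh1 set, against 6.75% of all probe sets. The median difference of the 42 was -0.03, and that of all probe sets 0.02. Counting each gene once, by its own brightest probe set, 2 of 30 serpin genes (6.67%) passed, against 11.7% of all genes (6.46% higher and 5.24% lower).

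**Figure D1:**
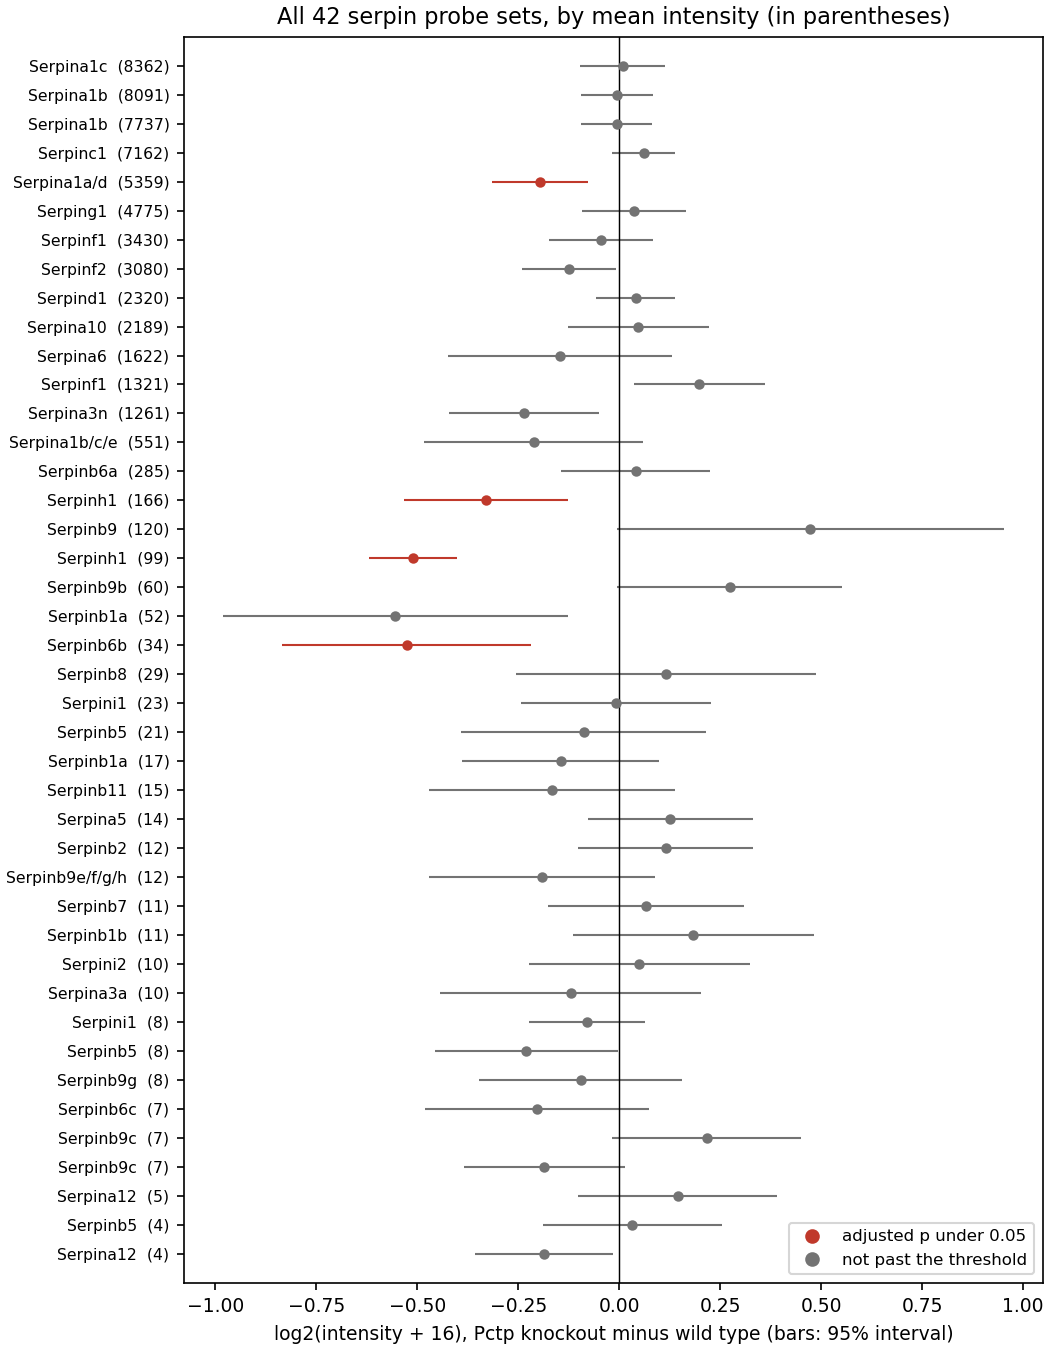
Difference in log2(intensity + 16), Pctp knockout minus wild type, for each of the 42 serpin probe sets, with bars for the 95% interval of the limma fit, ordered by mean intensity over 12 arrays (in parentheses). The 4 red points passed the threshold and all lie left of 0, from -0.53 to -0.20.

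Brightness divided the members. Of the 42 probe sets, 18 had a mean of at least 64 over the 12 arrays and 24 a lower one, with 21 under 30. Among the 24 dim sets 1 passed (4.17%), against 3.96% of all probe sets as dim, and among the 18 brighter sets 3 (16.7%), against 18.1%. No filter on low values was used in the fit. The gene and marker lists are set against all genes whatever their brightness, so a list of bright genes can exceed that share for this reason alone. The 13 sets with a mean of at least 1000 belong to serpins that the liver secretes, and their differences ran from -0.24 to 0.20.

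Serpinh1 (chr7:99345375-99353239, GRCm38.p6) fell in both of its probe sets. HSP47 binds procollagen triple helices in the endoplasmic reticulum and is needed for their folding and export. In liver it is best known from stellate cells and fibroblasts. The dimmer set read from 72.8 to 86.0, with a median of 78.5, in knockout livers, and from 110.9 to 129.9, with a median of 117.8, in wild-type livers. Every knockout array lay below every wild-type array. The difference was -0.51 (SE 0.0505, adjusted p = 0.000218, limma), a 1.42-fold fall. The call was kept in 7 of 7 alternative settings and without each of the 12 arrays, where the adjusted p reached at most 0.000938. Without those 2 wild-type arrays it was -0.52 (adjusted p = 0.00163). The ratio of the group means with no constant added was 1.51, and the authors' deposited table gives this set a fold of -1.51, an unadjusted p of 4.9e-05 and present calls on 100% of the arrays of both groups.

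The brighter set of Serpinh1 read from 133.95 to 154.3, with a median of 142, in knockout livers, and from 134.2 to 221.6, with a median of 195.6, in wild-type livers. Wild-type replicate 2, at 134.2, lay among the knockout arrays, and the other wild-type arrays lay above them all. The difference was -0.33 (SE 0.0938, adjusted p = 0.0385, limma), a 1.26-fold fall. This call was weak. It was lost with a constant of 1 (adjusted p = 0.0514) and when any array except wild-type replicate 2 was left out (adjusted p from 0.0532 to 0.0792). Without wild-type replicate 2 the difference was -0.41 (adjusted p = 0.00291), and without replicates 2 and 5 it was -0.42 (adjusted p = 0.00689). Both sets stayed lower in knockout livers after quantile normalization and after median centring. In whole tissue, fewer cells of a type and less RNA per cell cannot be told apart. Of 12 stellate cell and fibroblast markers 4 rose (33.3%, against 6.46% of all genes) and 0 fell. Without wild-type replicates 2 and 5, 2 rose and 0 fell, 16.7% of the list against 9.02% of all genes. The summed intensity of the 12 markers ran from 3721 to 4477 in knockout livers and from 3175 to 3898 in wild-type livers, with overlap. Of 6 markers of mesothelium, fat and exocrine pancreas 1 fell (16.7%, against 5.24% of all genes), Cela1. Their sum ran from 275 to 316 in knockout livers and from 337 to 412 in wild-type livers, without overlap. Most of that sum was Cela1, from 191 to 232 in knockout and from 241 to 267 in wild-type livers, while the pancreatic Cpa1 read at most 5.62 on any array. The part of these markers in the result was not tested.

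**Figure D2:**
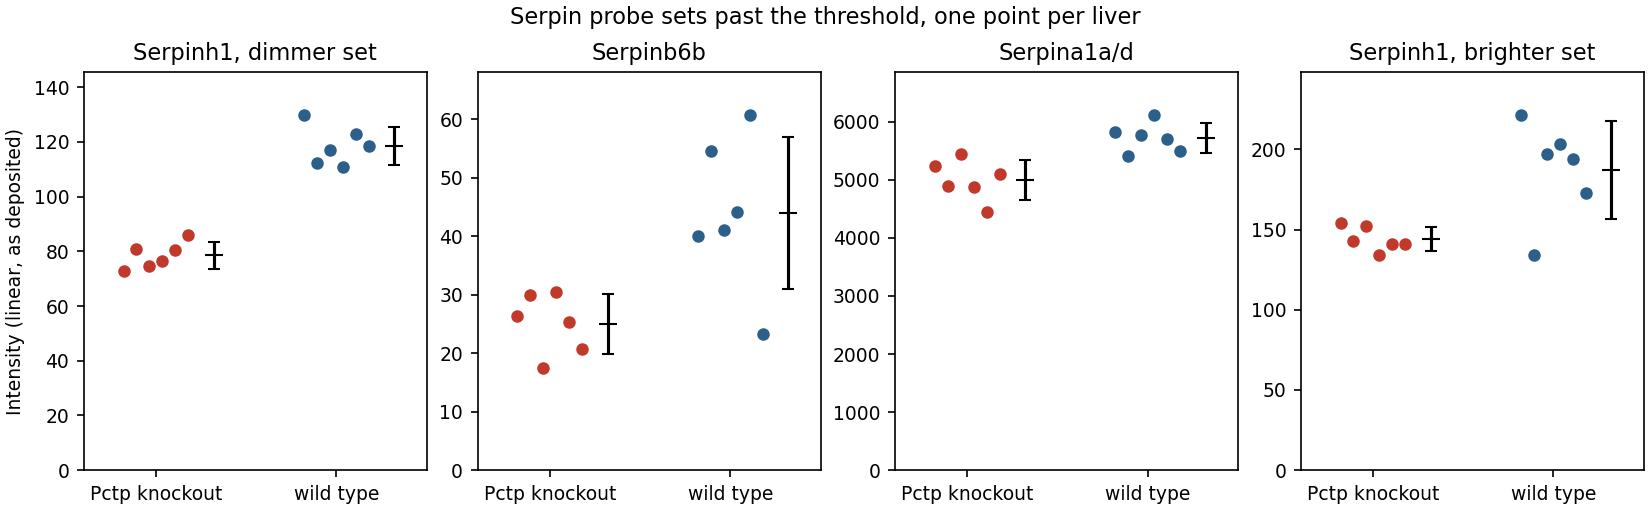
Intensity on each array (points, 6 Pctp knockout livers left, 6 wild-type livers right) of the 4 serpin probe sets past the threshold, with mean and SD in black. The dimmer Serpinh1 set separates the groups completely, and in each other panel at least 1 wild-type liver lies among the knockout livers.

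The partners of HSP47 in collagen synthesis were described by 25 measured genes. Of these 5 fell and 1 rose (24.0%, against 11.7% of all genes), with a median difference of -0.06, against 0.01 over all genes. Without wild-type replicates 2 and 5, 2 fell (Plod1 and Ppib) and 1 rose (P3h1), 12% of the list against 9.02% of all genes. Plod1, which hydroxylates collagen lysines, averaged 179 ± 16.5 in knockout and 237 ± 29.2 in wild-type livers (SD, n = 6 each), a 1.29-fold fall (adjusted p = 0.0113, limma). Ppib, the prolyl isomerase cyclophilin B, fell 1.16-fold (adjusted p = 0.0115), and its other probe set fell too, by 0.25 on the log2 scale. P4ha2, a catalytic subunit of prolyl 4-hydroxylase, was at -0.27 and fell (adjusted p = 0.0122).

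The other genes past the threshold in that list were chosen for naming after their values were seen. Crtap, which forms a complex with cyclophilin B and P3h1 that hydroxylates single prolines in collagen, fell 1.17-fold (adjusted p = 0.0337, limma). P3h1, the enzyme of that complex, was the 1 that rose, 1.31-fold (adjusted p = 0.0255), while its dimmer probe set was at 0.06 and did not pass. Col4a1, a basement membrane collagen, fell 1.36-fold by its brightest set (adjusted p = 0.0194), and its other set was at -0.07 and did not pass. The chains of fibrillar collagen did not pass: Col1a1 was at -0.01, Col1a2 at 0.05 and Col3a1 at -0.07.

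**Figure D3:**
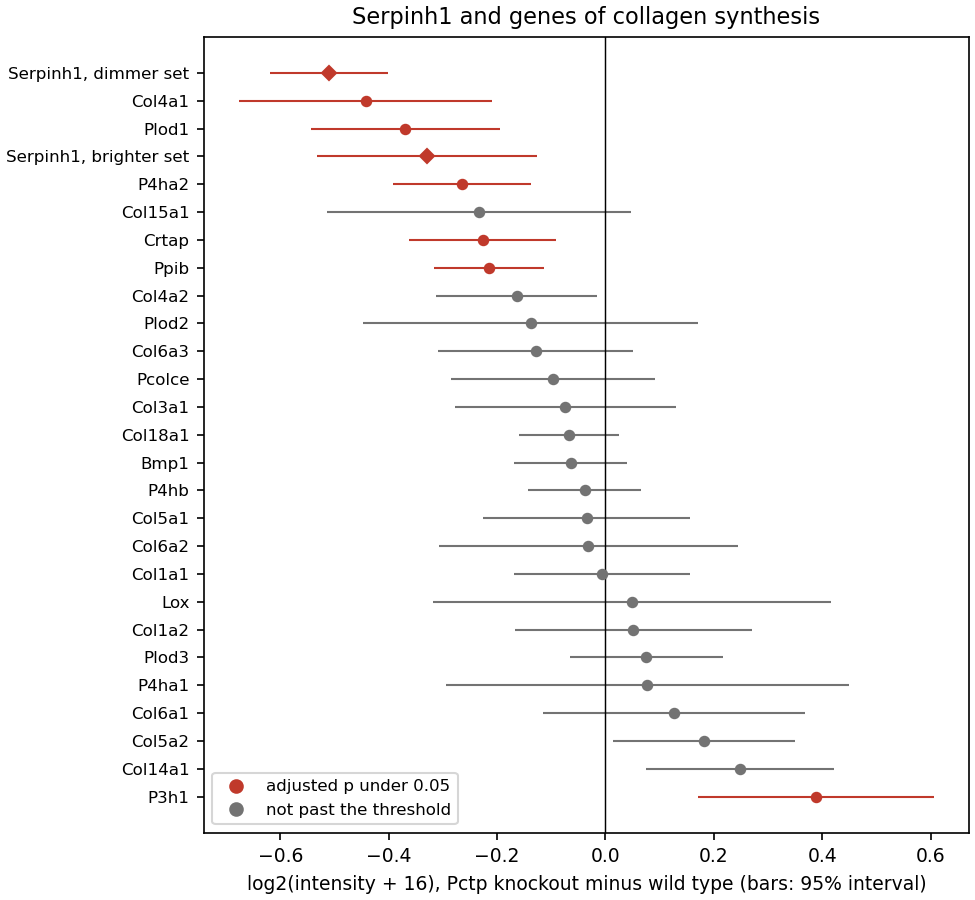
Difference in log2(intensity + 16), Pctp knockout minus wild type, with 95% intervals, for the 2 Serpinh1 probe sets (diamonds) and 25 genes of collagen synthesis (circles), with red for an adjusted p under 0.05. Both diamonds and 5 genes are red left of 0, P3h1 at 0.39 is the single red point right of 0, and Col1a1 lies at -0.01.

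α1-Antitrypsin is the main inhibitor of neutrophil elastase in plasma. Its genes were covered by 5 probe sets. The set shared by Serpina1a (chr12:103853295-103863619) and Serpina1d (chr12:103763587-103773633) fell. It read from 4439 to 5449, with a median of 4998, in knockout livers, and from 5411 to 6119, with a median of 5734, in wild-type livers. A single knockout array, replicate 3 at 5449, overlapped the wild-type range. The difference was -0.20 (SE 0.0548, adjusted p = 0.0354, limma), a 1.15-fold fall. The call was lost when knockout replicate 2, 4 or 5 or wild-type replicate 1, 3, 4 or 5 was left out (adjusted p from 0.0598 to 0.0752), with differences from -0.22 to -0.16 over the 12 such fits. It was also lost without wild-type replicates 2 and 5 (-0.22, adjusted p = 0.0585).

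The 3 probe sets of single neighbouring copies had differences near 0. Serpina1c (chr12:103894926-103904950) read from 8021 to 8971, with a median of 8257, in knockout livers and from 7882 to 8870.2, with a median of 8353, in wild-type livers, almost the same range. Its difference was 0.01, with a 95% interval from -0.10 to 0.11. The sets of Serpina1b (chr12:103728156-103738189) read from 7524 to 8365 and from 7299 to 8047 in knockout livers, against 7804 to 8241 and 7492 to 7927 in wild-type livers. Their differences were both -0.01, and their intervals ran from -0.10 to 0.08 and from -0.09 to 0.08. Whether these probe sets also hybridise to copies that the annotation does not list for them was not tested.

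Within arrays, the log2 ratio of the Serpina1a and Serpina1d set to the mean of these 3 sets was -0.69 ± 0.0826 in knockout and -0.49 ± 0.0302 in wild-type livers (SD, n = 6 each). The ratio was chosen after the values were seen, so it is a description with no test. The last set, shared by Serpina1b, Serpina1c and Serpina1e, read from 388.7 to 601.6, with a median of 517, in knockout livers and from 476 to 710.7, with a median of 591, in wild-type livers. Its difference of -0.21 was as large as that of the Serpina1a and Serpina1d set, but its arrays spread more, the groups overlapped and it did not pass (SE 0.126, adjusted p = 0.318). The probe sets thus do not settle which copies, if any, changed.

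**Figure D4:**
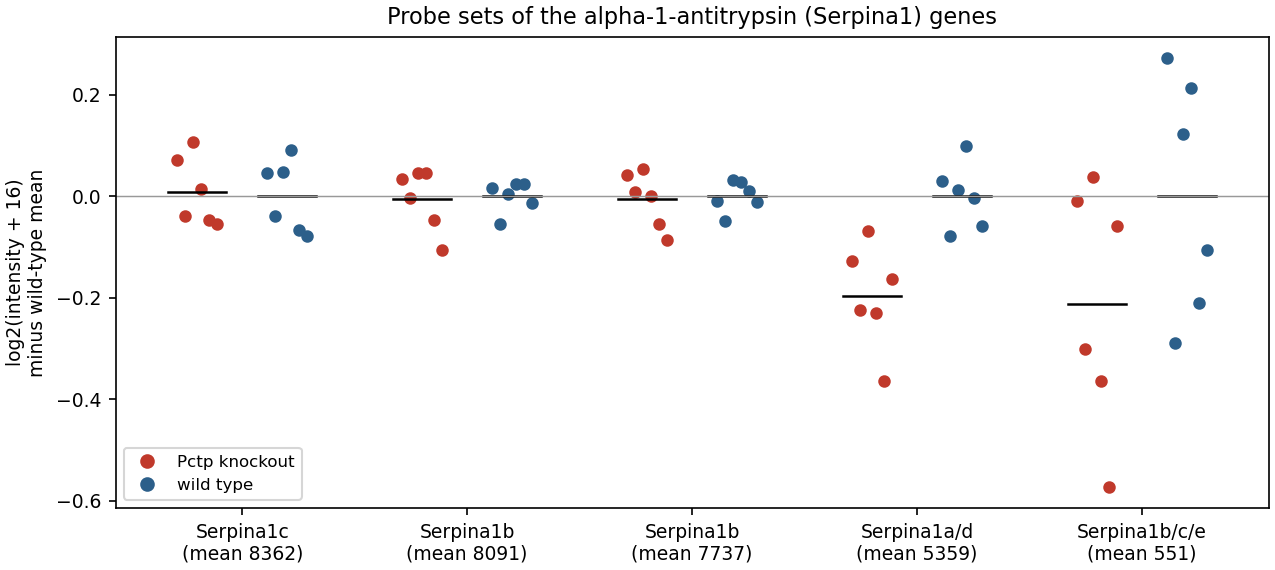
The 5 probe sets of the α1-antitrypsin genes, ordered by mean intensity, as log2(intensity + 16) on each array minus the wild-type mean of that set. Black lines are group means (n = 6 each), at -0.20 for the knockout livers of the Serpina1a and Serpina1d set and within 0.01 of the wild-type mean in the 3 brightest sets.

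The serpins that restrain clotting, clot lysis and complement passed the threshold in 0 cases. Serpinc1 (chr1:160978583-161002543) encodes antithrombin, the heparin-activated inhibitor of thrombin and factor Xa. It read from 7106 to 7415, with a median of 7334, in knockout livers and from 6872 to 7262, with a median of 6963, in wild-type livers. Of the knockout arrays 5 of 6 lay above every wild-type array, yet the difference was 0.06 (95% interval -0.02 to 0.14, adjusted p = 0.327, limma). Serpind1, heparin cofactor II, which inhibits thrombin, read from 2191 to 2441, with a median of 2373, in knockout livers and from 2111 to 2371, with a median of 2312, in wild-type livers. The groups overlapped, with a difference of 0.04 (95% interval -0.06 to 0.14). Serpina10, which inhibits factor Xa with its cofactor protein Z, averaged 2227 ± 251 in knockout and 2150.4 ± 197 in wild-type livers (SD, n = 6 each, difference 0.05). Serpina5, the protein C inhibitor, which mouse liver is known to express little of, averaged 15.4 in knockout and 12.7 in wild-type livers.

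Serpinf2 (chr11:75431736-75439501) encodes α2-antiplasmin, the fast inhibitor of plasmin. It read from 2730 to 3234, with a median of 2885, in knockout livers and from 3021 to 3406, with a median of 3198, in wild-type livers. Of 6 knockout arrays 4 lay below all wild-type arrays. The difference was -0.13 (95% interval -0.24 to -0.01) with an unadjusted p of 0.0367 and an adjusted p of 0.156 (limma), so it did not pass. Serping1, C1 inhibitor, which blocks C1r, C1s, plasma kallikrein and factor XIIa, read from 4384 to 5356, with a median of 4839, in knockout livers and from 4338 to 5129, with a median of 4689, in wild-type livers. Its groups overlapped nearly throughout (difference 0.04, 95% interval -0.09 to 0.17).

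The proteases that serpins act on, from clotting enzymes to cathepsins, came next. Of 28 measured target proteases 3 fell and 2 rose (17.9%, against 11.7% of all genes), with a median of 0.02. Without wild-type replicates 2 and 5, 2 fell (F9 and Klkb1) and 2 rose (Ctsk and Ctss). That was 14.3% of the list, against 9.02% of all genes. F9, coagulation factor IX, averaged 1855 ± 109 in knockout and 2204 ± 139 in wild-type livers (SD, n = 6 each), a 1.19-fold fall (adjusted p = 0.0145, limma). Klkb1, plasma prekallikrein and a target of C1 inhibitor, fell 1.15-fold (adjusted p = 0.0209), and its groups did not overlap. Ctsk, the collagen-cutting cathepsin K, rose 1.25-fold from a dim probe set (37.5 ± 5.24 in knockout and 26.8 ± 3.69 in wild-type livers, adjusted p = 0.0163). F7 also fell (1.22-fold) and Plat rose (1.28-fold). Prothrombin (F2) and plasminogen (Plg), chosen after their values were seen, were at 0.03 and -0.03 and did not pass.

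Among the carriers and acute phase members, Serpina6 (corticosteroid-binding globulin) read from 1316 to 1953, with a median of 1453, in knockout livers and from 1368 to 2218, with a median of 1623, in wild-type livers. It was the most variable of the sets with a mean over 1000, at a coefficient of variation of 16.3% in knockout and 18.9% in wild-type livers. Its difference of -0.15 had a 95% interval from -0.42 to 0.13 and 0 alternative settings brought it past the threshold. Serpina3n, an acute phase serpin induced by inflammation and glucocorticoids, read from 1043 to 1293, with a median of 1146, in knockout livers and from 1136 to 1636, with a median of 1373, in wild-type livers. Of 6 knockout arrays 3 lay below all wild-type arrays. Its difference of -0.24 (adjusted p = 0.0971, limma) did not pass, and without wild-type replicate 1 it was -0.29 and did (adjusted p = 0.0377).

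Serpinf1 encodes pigment epithelium-derived factor, which inhibits no protease and acts on blood vessels and on the lipase ATGL. Its probe sets disagreed. The brighter averaged 3373 ± 119 in knockout and 3487 ± 299 in wild-type livers (difference -0.04), and the dimmer 1410 ± 78.4 in knockout and 1232 ± 146 in wild-type livers (SD, n = 6 each, difference 0.20, adjusted p = 0.109, limma). The dimmer set passed without wild-type replicate 1 (0.25, adjusted p = 0.0297). Within arrays the log2 ratio of dimmer to brighter was -1.25 ± 0.0769 in knockout and -1.49 ± 0.102 in wild-type livers (difference 0.24, a description chosen after the values were seen). No direction is given for the gene. Serpina12, the adipokine vaspin, read at most 10.7 on any array.

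Clade B was measured by 19 probe sets, of which 17 had a mean under 64. Serpinb6b (chr13:32956811-32979067), an intracellular member, was the 1 that passed. It read from 17.4 to 30.4, with a median of 25.9, in knockout livers and from 23.3 to 60.8, with a median of 42.6, in wild-type livers. Wild-type replicate 6, at 23.3, lay among the knockout arrays, and the other wild-type arrays lay above all of them. The difference was -0.53 (SE 0.143, adjusted p = 0.0305, limma), a 1.44-fold fall. Its size depends on the constant added, at -0.76 with 1 and -0.27 with 64, and was called with both. The ratio of the group means with no constant was 1.76, and in the authors' deposited table the fold is -1.76, with an unadjusted p of 0.019418 and present calls on 100% of the arrays of both groups. The call was lost when knockout replicate 1, 3, 5 or 6 or wild-type replicate 2, 3, 4 or 5 was left out (adjusted p from 0.0519 to 0.0634), and without wild-type replicate 6 the difference was -0.64 (adjusted p = 0.00561). Wild-type replicates 2 and 5 held its highest values, 54.5 and 60.8. Without both the difference was -0.36 and did not pass (adjusted p = 0.115).

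The other clade B members did not pass over all 12 arrays. Serpinb1a, which inhibits neutrophil elastase and cathepsin G, averaged 39.5 ± 18.0 in knockout and 64.1 ± 18.9 in wild-type livers (SD, n = 6 each). Its difference was -0.55 (adjusted p = 0.0896, limma), and without knockout replicate 5 it was -0.70 (adjusted p = 0.0221). With a constant of 64 it was -0.31 and as the mean of its sets -0.35, and its dimmer set was at -0.14. Serpinb9, which protects cells from granzyme B, averaged 140 ± 32.6 in knockout and 100.4 ± 45.7 in wild-type livers. Its difference was 0.47 (adjusted p = 0.195), and without wild-type replicate 2 it was 0.64 (adjusted p = 0.0395). Wild-type replicates 2 and 5 held the highest wild-type values, 180.7 and 123.6, and without both Serpinb9 was higher in knockout livers (0.77, adjusted p = 0.0194). Serpinb9b was at 0.27 (adjusted p = 0.197), and Serpinb6a, from 237.9 to 344 in knockout and 252.8 to 324 in wild-type livers, was at 0.04.

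Markers of blood cells, which carry many clade B serpins, were counted beside them. Of 10 neutrophil markers 0 passed, where 11.7% of all genes did, and their sum ran from 554 to 622 in knockout and from 579 to 620 in wild-type livers. Of 12 lymphocyte markers 0 passed, with sums from 568.4 to 716 in knockout and from 459 to 867 in wild-type livers. Wild-type replicates 2 and 5 had the highest lymphocyte sums too. Ptprc, the common leukocyte antigen, read 322 and 301 there, against 98.7 to 150.3 on the other wild-type arrays. The granzyme gene Gzma read 124.2 and 98.2, against 33.0 to 50.9, and Gzmb read 67.6 and 44.9, against 15.7 to 36.5. Not every marker was highest there: Ms4a1 read 61.9 and 69.1, against 55.2 to 84.2. Without wild-type replicates 2 and 5, 1 of 12 lymphocyte markers, Ptprc, was higher in knockout livers (8.33%, against 9.02% of all genes). The 9 macrophage markers and Serpinb9 were higher too. These 2 arrays were left out for their high macrophage markers and held the highest wild-type values of Ptprc and Serpinb9. These calls thus depend on that choice and are no test. None of the marker sums over all 12 arrays separated the groups in the neutrophil, lymphocyte and macrophage lists, and their part in the clade B values was not tested. The remaining clade B sets, with the neuronal Serpini1 and the pancreatic Serpini2, had means from 4.40 to 29.0. Of these 0 passed, and whether their transcripts were present was not tested.

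Liver serpin genes are switched on by a set of liver-enriched, acute phase and hormone-bound factors. Of 21 measured transcription factors and receptors 6 fell and 2 rose (38.1%, against 11.7% of all genes). Without wild-type replicates 2 and 5, 4 fell (Cebpb, Cebpd, Ppara and Thrb) and 1 rose (Hnf4a). That was 23.8% of the list, against 9.02% of all genes. Cebpd, a factor of the acute phase, averaged 154 ± 24.4 in knockout and 240.4 ± 24.2 in wild-type livers (SD, n = 6 each), a 1.52-fold fall (adjusted p = 0.00209, limma), with its dimmer set at 0.03. Thrb, a thyroid hormone receptor, fell 1.83-fold (adjusted p = 0.00236). Ppara, the receptor that fenofibrate activates, fell 1.35-fold (adjusted p = 0.00449). The factor gene Hnf4a, named after its value was seen, rose in all 4 of its sets, 1.25-fold in the brightest (adjusted p = 0.0192), and Onecut1 rose 1.62-fold. Cebpb, Nr3c1 and Nr5a2 were the other falls by the brightest set. Nr3c1, the glucocorticoid receptor, was at -0.23 in that set and at -0.22 in its second (adjusted p = 0.0223). Its dimmest set was at 0.57 and past the threshold in the other direction, so its sets oppose each other.

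Cofactors and receptors that serpins use or that clear them from blood fell in 4 of 16 cases (25.0%, against 5.24% of all genes) and rose in 0. Without wild-type replicates 2 and 5, 2 fell (Lrp6 and Sdc4), 12.5% of the list against 9.02% of all genes. Sdc4, a heparan sulfate proteoglycan of the kind that can bind antithrombin, averaged 602 ± 112 in knockout and 1085 ± 173 in wild-type livers (SD, n = 6 each), a 1.79-fold fall (adjusted p = 0.00218, limma), and both of its sets fell. Lrp6, a Wnt coreceptor reported to bind Serpinf1, fell 1.36-fold (adjusted p = 0.00528), while its dimmer set was at 0.14 and did not pass. Lrp1, the hepatic receptor that takes up complexes of serpins with proteases, fell as well, 1.16-fold (adjusted p = 0.0303), though its groups overlapped. Pros1, protein S, was the other fall, at 1.22-fold.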

How the data were processed

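The deposited value table holds 1 intensity per probe set and array, on a linear scale, summarised and scaled by the authors (the sources used here name no program). Per the labels' protocols, biotinylated cRNA was made from 8 ug of total RNA. From the authors' deposited table of 727 selected probe sets, its signed fold (a score), its p-value and its percent of present calls were taken for the 2 serpin sets listed. Its other columns were not used.

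The 64 control probe sets were left out. Probe sets were named from the platform annotation: 20380 had 1 symbol, 691 several and 1555 none. Each was tested as log2(intensity + 16) with limma 3.58.1 (lmFit, eBayes) in R 4.3.3, two-sided, over 6 and 6 arrays. Each gene was represented by its probe set of highest mean. The beta-actin ratio was compared by exact permutation (scipy 1.17.1), and intervals cover 95%. The number of arrays limits the precision. Members were named by symbol. Of each gene list, the called genes of smallest p were named, at most 3, and any other list gene was chosen for naming after its values were seen. Members, lists and tests were chosen with earlier results of these data known. Replicate numbers did not pair the samples: the deviations of same-numbered arrays correlated between -0.08 and 0.08. The fit was tested on simulated data. Loci and promoters came from RefSeq tables of GRCm38.p6. Figures used matplotlib 3.10.9.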

Additional observations from a re-analysis of the deposited data

Results flagged for a closer look

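In 3 of 84 groups of 6 arrays (42 probe sets in both genotypes) an array stood apart from the other 5 by Dixon's test, where chance gives about 1 in 20. Serpinb2 read 17.6 in knockout replicate 5, and the other knockout arrays lay between 11.2 and 13.5. A probe set of Serpinb5 read 10.3 in knockout replicate 6, and the other knockout arrays between 20.4 and 23.1. Another Serpinb5 set read 11.9 in wild-type replicate 3, with 1 to 4.202 on the remaining wild-type arrays. All of these sets are dim and none passed the threshold.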

How the results depend on the processing

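The count of serpin probe sets past the threshold was 4 with a constant of 64, after quantile normalization, after median centring and with a trended and robust variance. It was 3 with a constant of 1 or a filter on means under 64, which left 18 serpin sets. With the replicate number as a block it was 2 (Serpinb6b and the dimmer Serpinh1 set), and the count over all probe sets 1906. It was 3 without wild-type replicates 2 and 5 (both Serpinh1 sets lower, Serpinb9 higher), where all probe sets gave 2044, 65.0% of them higher. Leaving out each array gave 1 to 4 serpin sets, and 2006 to 2742 over all, against 2708. The dimmer Serpinh1 set was called in each of these fits. The other 3 calls were lost in 7 to 11 of the 12 fits without 1 array, which have fewer samples. All 4 kept their direction. Differences near 0 changed sign. Serpina1c was at -0.0146 after quantile normalization, at -0.0240 after median centring, at -0.0177 without wild-type replicates 2 and 5, and from -0.0108 to 0.0270 without 1 array. Serpina1b ran from -0.0160 to 0.0151 and Serpinb6a from -0.00882 to 0.0922 without 1 array, and Serpinf1 was at 0.0770 as the mean of its sets. The cause was not tested. The beta-actin difference stayed between 0.35 and 0.42. The fit without wild-type replicates 2 and 5 was chosen after seeing the data. Sets with a mean under 30 limit what 21 of the 42 can show.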

Other observations

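Serpins are folded and quality-checked in the endoplasmic reticulum, and variants of α1-antitrypsin that misfold there are a known cause of liver disease. Of 15 measured genes of serpin export and disposal 2 fell and 1 rose (20.0%, against 11.7% of all genes), with a median of -0.04. Without wild-type replicates 2 and 5, 1 fell (Edem2) and 0 rose, 6.67% of the list against 9.02% of all genes. Edem2, which marks misfolded glycoproteins for disposal, averaged 269 ± 12.6 in knockout and 319 ± 16.2 in wild-type livers (SD, n = 6 each), a 1.17-fold fall (adjusted p = 0.00888, limma), and its groups did not overlap. Lman1, the cargo receptor that carries α1-antitrypsin and several clotting factors out of the endoplasmic reticulum, fell 1.16-fold by its brightest set (adjusted p = 0.0160). Its second brightest set fell too, at -0.19 (adjusted p = 0.0210). The 4 sets of Lman1 did not all move together: a dimmer one was at 0.31 and past the threshold in the other direction (adjusted p = 0.0199). The dimmest was at -0.02 and did not pass. Sel1l, a scaffold of the disposal complex, rose 1.16-fold (adjusted p = 0.0310).

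Of 27 other protease inhibitors of plasma and tissue, such as α2-macroglobulin, the inter-α-trypsin inhibitors and the TIMPs, 1 rose and 1 fell (7.41%, against 11.7% of all genes), and neither passed without wild-type replicates 2 and 5. Timp3, an inhibitor of matrix metalloproteases, averaged 106 ± 17.0 in knockout and 82.9 ± 5.66 in wild-type livers (SD, n = 6 each), a 1.22-fold rise (adjusted p = 0.0470, limma), and its 3 other sets did not pass. Spink1, a trypsin inhibitor, averaged 23.4 ± 3.11 in knockout and 33.8 ± 7.72 in wild-type livers, a 1.25-fold fall (adjusted p = 0.0473). Both groups of arrays overlapped in each of these genes.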
